A study of Mus musculus with 3 samples.

Results

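The genes of the cytosolic ribosomal proteins were described in 3 RNA-seq libraries of mouse T helper 1 (Th1) cells. Members were taken by symbol alone, as every gene named Rpl or Rps with a number and, where present, a suffix a, l, x, al or l1, together with Rplp0, Rplp1, Rplp2 and Rpsa. This rule took 87 of the 50600 genes counted, 33 of the small subunit and 54 of the large subunit. The rule uses no measured value. Of the 87, 76 are canonical genes and 11 carry symbols of like copies (Rpl22l1, Rpl7l1, Rps27l, Rpl36al, Rpl39l, Rpl3l, Rpl10l, Rps4l, Rpl6l, Rpl32l and Rps12l1). The annotation lists Rpl6l, Rpl32l and Rps12l1 as processed pseudogenes and Rps4l as a transcribed processed pseudogene, and the other 83 members as protein-coding. The members lie on 19 chromosomes, with 15 on chromosome 7.

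The cytosolic ribosome joins a small subunit, which reads the messenger RNA, to a large subunit, which forms the peptide bond. Each subunit is built on ribosomal RNA and a set of proteins needed in nearly equal numbers, and activated T cells make many ribosomes before they divide. In mammals the messenger RNAs of these proteins begin with a C and a run of pyrimidines, the 5′ terminal oligopyrimidine or TOP element, through which the growth kinase mTOR controls their translation. Many of the genes also carry small nucleolar RNAs (snoRNAs, which guide the modification of ribosomal RNA) in their introns.

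The libraries form 1 group, biological replicates 1, 2 and 3 of primary Th1 cells of strain C57BL/6NJ, and the file headers place them at 48 h of a time course. No treatment, genotype or second group was labelled among them, and the labels record neither age nor sex. The same donor identifier is common to the 3 libraries and nothing records whether separate mice or cultures were used. P-values here thus refer to variation among the libraries, possibly technical in origin. The comparisons available were therefore between members within a library, between members and all other genes, and between the libraries.

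Replicates 1, 2 and 3 held 4742025, 50627 and 3543816 counts. A count of 0 allowed a level of up to 0.633, 59.3 and 0.847 CPM (counts scaled to library total), with 3 counts as the limit. All intervals and limits given cover counting error only. All 9 T cell markers and all 5 Th1 markers reached 1 TPM (counts per gene length, scaled to a common sum) in every library. In replicate 2 Ifng and Il12rb1 did so on 2 counts each and Cd3d on 3. Of the T cell markers, Cd247 had 56.4% of its exonic bases covered by opposite-strand exons. Natural killer and erythroid markers had 0 counts. The B cell markers had 11, 0 and 24 counts in all, with Ms4a1 and Pax5 at 0. Of the CD8 T cell markers, Cd8a was at 0 and Cd8b1 had 21, 1 and 13 counts. Of 5 myeloid markers, 4 were at 0 and Csf1r, with 17.8% of its exonic bases covered by opposite-strand exons, had 1096, 10 and 1606 counts. The part of other cells in the results was not tested.

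The start sites of 14 members, the pseudogene Rpl32l among them, carried a C followed by at least 4 further pyrimidines, and 8 of them are shown because they set out the element by which these genes are known. Each line gives 15 bases before and 15 bases from the annotated start, 5′ to 3′, from the RefSeq promoter table on GRCm38.p6, with the pyrimidine run from the start in capitals.
Rps18, chr17:33955651-33955680, minus strand: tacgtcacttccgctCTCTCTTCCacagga
Rpl38, chr11:114668565-114668594, plus strand: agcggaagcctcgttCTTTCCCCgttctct
Rpl28, chr7:4792950-4792979, plus strand: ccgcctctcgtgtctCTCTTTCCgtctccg
Rpl35, chr2:39005117-39005146, minus strand: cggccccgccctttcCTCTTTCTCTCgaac
Rps27, chr3:90213634-90213663, minus strand: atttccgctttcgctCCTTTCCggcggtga
Rps6, chr4:86857353-86857382, minus strand: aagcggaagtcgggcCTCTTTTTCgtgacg
Rpl15, chr14:18270972-18271001, minus strand: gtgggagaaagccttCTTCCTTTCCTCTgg
Rpl35a, chr16:33056467-33056496, plus strand: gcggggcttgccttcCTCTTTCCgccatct
Of 87 members, 64 had a window in that table. The pattern at the annotated start stood in 14 of 64 members (21.9%) and in 3.0% of 27025 genes. The mean levels of the genes shown ran between 102.3 TPM for Rpl35a and 637.6 TPM for Rps18. Over all 14 they ran between 1.63 TPM for Rpl32l and 968.5 TPM for Rpl14, so the pattern stood in members of different abundance.

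Annotated starts can lie some bases from the position used in a given cell, so a wider search was added after the windows had been seen. A C followed by at least 7 pyrimidines lay within 25 bases of the start in 34 of 64 members (53.1%) and in 17.7% of all genes with a window. Over the whole window of 250 bases before to 50 after the start, on both strands, CTTTCC was found in 53.1% of members and 29.3% of genes. CCGGAAG, a form of the site bound by ETS family factors, was found in 39.1% of members and 9.9% of genes. ATGGCGG was found in 17.2% of members and 4.7% of genes, and TATAAA in 12.5% of members and 15.7% of genes. These are matches of letters and not measured sites.

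Nearly every canonical gene was detected, and most were abundant. At least 1 TPM in every library was reached by 79 of 87 members, among them 75 of the 76 canonical genes, against 14.8% of all 50600 genes. The exception among canonical genes was Rpl24, with 57, 0 and 52 counts in replicates 1, 2 and 3. The share of all genes was limited by replicate 2, where 1 count was 19.8 CPM and only 7749 genes had any count. In replicates 1 and 3 alone, 82 members, with all 76 canonical genes among them, and 24.2% of all genes reached 1 TPM. At 100 TPM in every library there were still 69 members, against 2.0% of all genes. Among the 500 genes with the highest TPM were 62 members in replicate 1, 54 in replicate 2 and 35 in replicate 3. The member median was 596.6, 515.6 and 272.1 TPM, against 7.77, 31.04 and 4.97 TPM over all genes with a count in each library.

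The members' share of all counts was 5.08% in replicate 1, 4.37% in replicate 2 and 2.98% in replicate 3. Exact Clopper-Pearson 95% intervals were 5.06 to 5.10, 4.19 to 4.55 and 2.97 to 3.00. They do not overlap, and replicate 3 was the lowest. Small subunit genes supplied 38.8%, 37.4% and 39.0% of the member counts in replicates 1, 2 and 3, with 95% intervals of 38.6 to 39.0, 35.4 to 39.5 and 38.7 to 39.3. These 3 intervals overlap, while those of the summed share do not. Whether the balance between the subunits differed between libraries was not tested.

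The difference in the summed share was not seen when genes that share exon positions with a gene of the other strand were set aside. Of the 87 members, 69 have no such position. Their share of the counts of all genes without one was 8.29%, 8.11% and 8.24% in replicates 1, 2 and 3. The exact 95% intervals, 8.26 to 8.33, 7.74 to 8.48 and 8.19 to 8.30, overlap. The counts had been made per strand with setting 1, and the library kit is not given in the sources used here. Whether the setting matched the strand of the libraries was not tested, so all levels below are counts on the annotated strand as deposited.

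**Figure D1:**
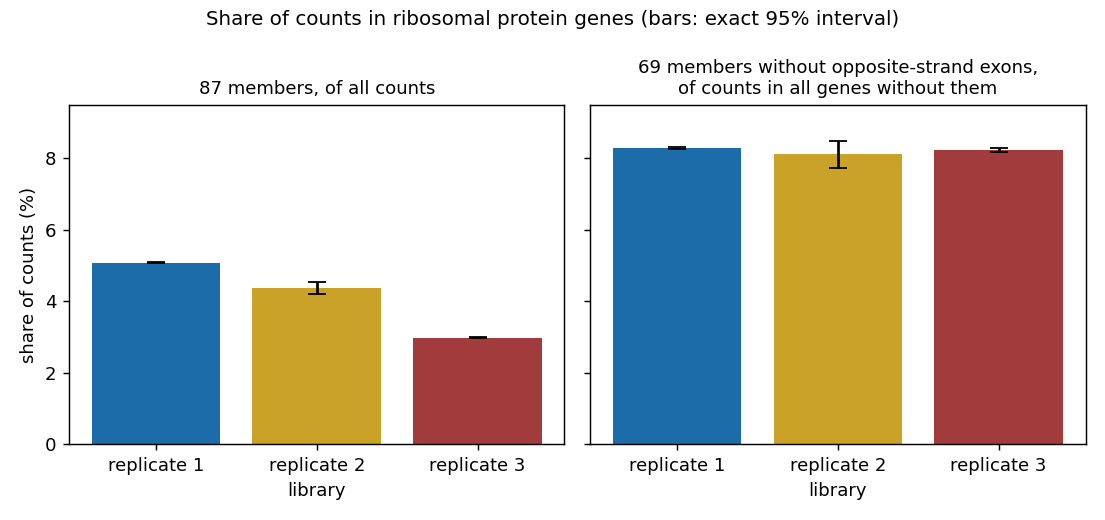
Share of counts (%, y axis) in each library (x axis), for all 87 members of all counts (left) and for the 69 members without opposite-strand exons of the counts in all such genes (right). Bars start at 0 and error bars are exact 95% intervals. On the left replicate 3 stands lowest at 2.98%, and on the right the libraries lie between 8.11% and 8.29%.

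Among small subunit genes, Rps24 stood highest at 4058, 3539 and 1879 TPM in replicates 1, 2 and 3. Rps24 encodes a protein needed to process the precursor of small subunit RNA. Rps15, whose protein takes part in the export of that subunit from the nucleus, followed at 3074, 2294 and 1575 TPM. Rps2, whose protein lies near the entry of the messenger RNA channel, had 1637, 767.1 and 663.1 TPM. Within each of the 3 libraries Rps24 exceeded Rps15. Their means were 3159 ± 1138 TPM for Rps24 and 2314 ± 749 TPM for Rps15 (SD, n = 3). The means differed by less than the SD of Rps24 over libraries. That SD includes the lower level of both genes in replicate 3, so it does not measure the spread of their difference within libraries.

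At the lower end of the small subunit stood Rps19, Rps15a, Rps28, Rps4l and Rps12l1. Rps19, whose human counterpart is the most frequently mutated gene of Diamond-Blackfan anaemia, had 275.6, 185.1 and 142.3 TPM, and Rps28 had 112.3, 84.6 and 74.2 TPM. The copies were far below them. Rps4l had 5, 0 and 3 counts and Rps12l1 had 0 counts in all 3 libraries. Rpsa, which encodes both a small subunit protein and a laminin-binding protein, lay in the middle of the range at 633.4, 586.1 and 254.6 TPM.

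Rpl4 led the large subunit on the mean, at 3088, 3662 and 1493 TPM, with 13269, 178 and 5907 counts. Its protein lines part of the exit tunnel of the nascent peptide. Rpl32, Rpl8, Rplp1 and Rpl36 followed, with means between 2055 and 2267 TPM. In replicate 1 Rpl8 (3305 TPM) stood above Rpl4, and in replicate 3 Rpl36 (1767 TPM) and, narrowly, Rpl8 (1494 TPM) did, so the order at the top was not the same in each library. The lowest canonical genes were Rpl24 and Rpl13a. The copies Rpl32l, Rpl6l, Rpl3l and Rpl10l had mean levels of at most 1.63 TPM.

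The P stalk, the flexible arm of the large subunit that recruits elongation factors, holds a copy of Rplp0 and pairs of Rplp1 and Rplp2. Rplp1 stood at 2576, 2565 and 1128 TPM, Rplp0 at 2021, 1643 and 871.5 TPM, and Rplp2 at 556.3, 597.8 and 251.2 TPM. The order Rplp1, Rplp0, Rplp2 was the same in all 3 libraries. Rplp2 and Rplp1 are partners in the stalk, and Rplp2 was the lower in each library. The order was the same in all 3 libraries per principal transcript, where Rplp1 averaged 1502 TPM, Rplp0 1326 TPM and Rplp2 724 TPM. The gaps between the means were smaller there. The deposited length of Rplp2 is 2072 bp against 964 bp for its principal transcript, and that of Rplp0 1659 bp against 1358 bp. Rplp1 has 499 bp in both.

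**Figure D2:**
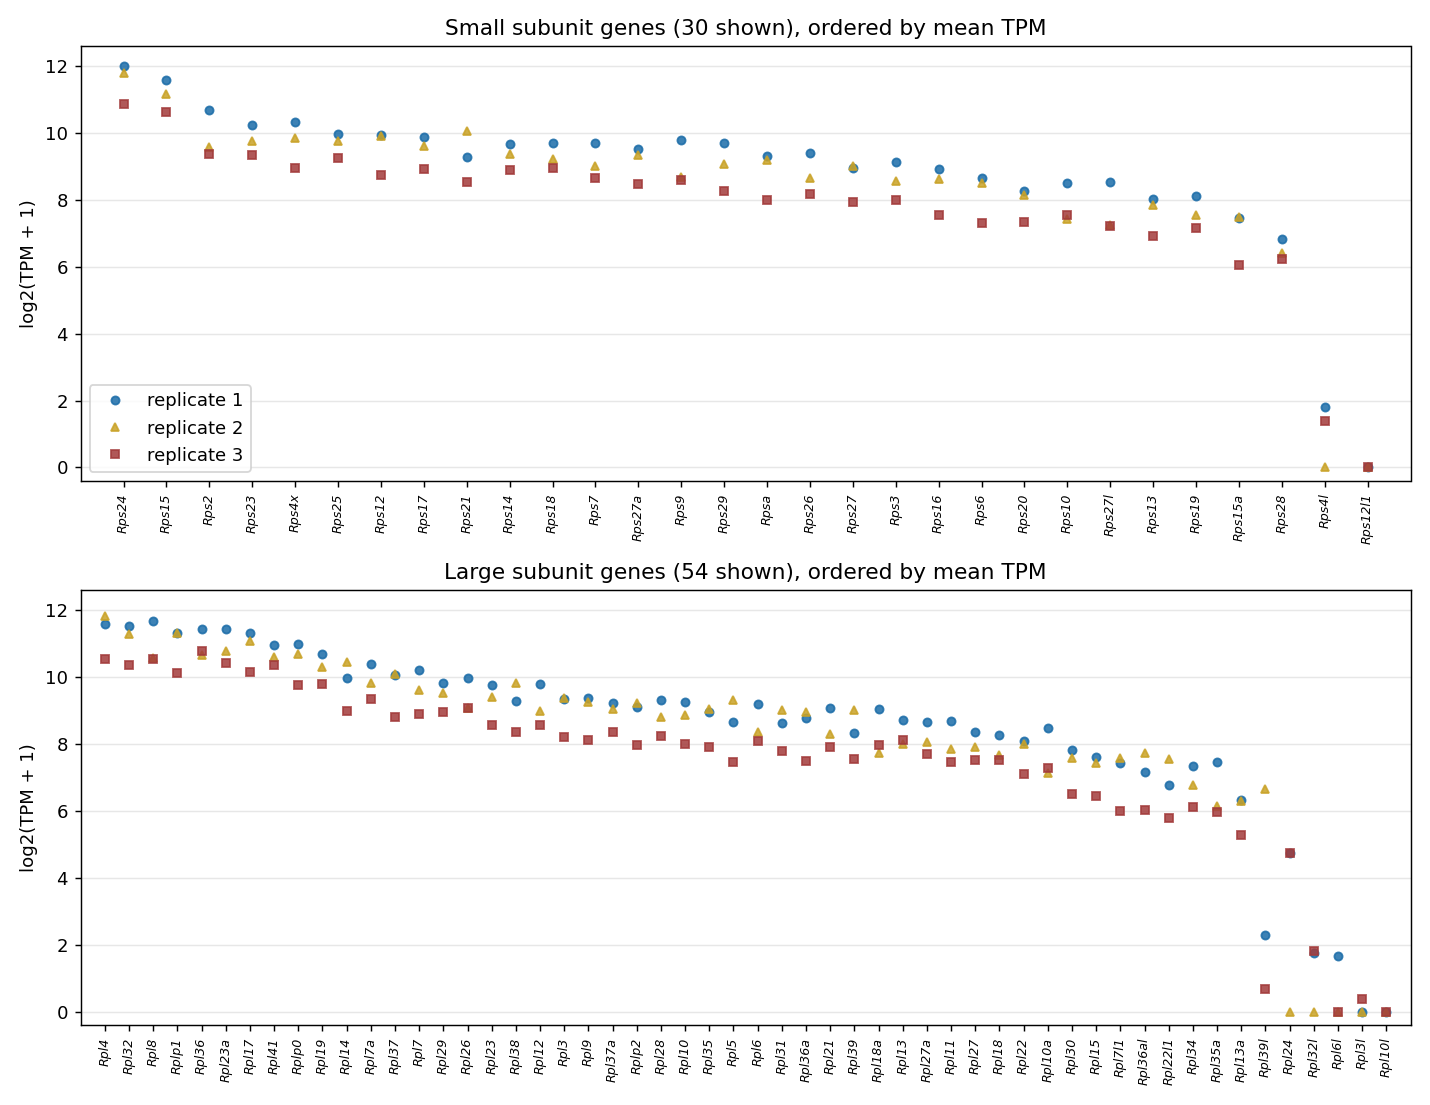
Level of the members as log2(TPM + 1) (y axis) in replicates 1 (circles), 2 (triangles) and 3 (squares), with 30 of the 33 small subunit genes above (3 are not shown) and the 54 large subunit genes below, ordered along the x axis by mean TPM. Most canonical genes lie between 6 and 12, replicate 3 is usually the lowest point, and the points below 4 are like copies apart from Rpl24 in replicate 2, which had 0 counts.

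The 2 lowest canonical genes of the large subunit share much of their exonic length with a second annotated gene of the same strand. Rpl24 shares 47.0% with Gm28037, which had 0 counts, and stood at 25.8, 0 and 25.6 TPM. Rpl13a, a regulator of translation in interferon-treated myeloid cells, shares 35.4% with Gm45713, Snord33 and Mir5121, which had 0 counts, and stood at 79.5, 78.1 and 38.2 TPM. The headers list no option to count a pair for more than 1 gene, so pairs within the shared exons were not counted for either. How much of their low level this made up was not tested. Same-strand exon bases were shared by 26 members in all, most of them with a snoRNA gene. Rpl24 and Rpl13a stood apart in size of overlap, since no other member shared more than 14.5% of its length.

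Small subunit genes stood slightly above large subunit genes per length. Over all members, the median log2(TPM + 1) of the small subunit minus that of the large subunit was 0.46, 0.10 and 0.50 in replicates 1, 2 and 3 (mean 0.35 ± 0.22, SD, n = 3). Among canonical genes the small subunit medians were 813.9, 591.4 and 376.2 TPM, and those of the large subunit were 603.7, 529.7 and 275.8 TPM. The small subunit median was the higher in all 3 libraries. This difference shrank to 0.11, 0.02 and 0.15 among canonical genes when levels were computed per length of the principal transcript. With 3 libraries an exact sign-flip test could not go below 0.25, so no test was made.

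The canonical genes spread widely around these medians although the ribosome holds their proteins in nearly equal numbers. The SD of log2(TPM + 1) over the 76 genes was 1.32, 1.63 and 1.29 in replicates 1, 2 and 3, and the upper quartile was 2.72, 3.24 and 2.78 times the lower. Over all 87 members the SD was 2.61, 2.76 and 2.46, because the like copies extend to 0. Levels of canonical genes fell with gene length, with Pearson's r between log2 length and log2(TPM + 1) of -0.49, -0.39 and -0.54 across 76 genes. With principal transcript lengths the values were -0.29, -0.20 and -0.35. Length enters TPM as a divisor, so the 2 quantities are not independent.

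Gene length in the deposited tables is the sum of all annotated exons and not that of the messenger RNA. The median canonical gene had a deposited length of 2.17 times its principal transcript. The choice moved individual genes: per principal transcript the highest small subunit gene on the mean was Rps25 (2757 TPM) and the highest of the large subunit was Rpl32 (3033 TPM). Rps24 averaged 1182 TPM on that scale, since its principal transcript in the later annotation, at 1613 bp, is longer than the 840 bp deposited. The order of single members by TPM therefore holds only for the stated length.

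The relative levels of members were alike between libraries. Across the 76 canonical genes, Pearson's r on the log2(TPM + 1) scale reached 0.98 when replicate 3 was set against replicate 1. With replicate 2 it was 0.92 for replicate 1 and 0.88 for replicate 3. Over the 14734 genes that had 1 TPM in any library the same 3 values were 0.91, 0.77 and 0.74. Those genes were not matched to members in level, and in replicate 2 only 7749 genes had a count. Lower values among them can thus come from counting error. The correlations are descriptions across genes, which are not independent replicates, and the points share their library and its depth. In replicate 2 the 87 members rest on 2212 counts.

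Like copies were set against their canonical partner in the same library, in pairs fixed by symbol. The pseudogenes Rpl6l, Rpl32l and Rps12l1 were not paired. Rpl22l1, a paralogue that can take the place of Rpl22 in the ribosome, had 107.8, 186.8 and 53.8 TPM, against 273.2, 255.3 and 138.2 TPM for Rpl22. The log2 ratio of Rpl22l1 to Rpl22 was -1.34 (exact 95% counting interval -1.49 to -1.19), -0.45 (-1.79 to 0.78) and -1.36 (-1.59 to -1.14). In the 2 deep libraries Rpl22l1 was lower than Rpl22 beyond counting error. Replicate 2, with 9 and 18 counts, could not show the difference at its depth. Exons of Gm33051 on the other strand cover 8.0% of Rpl22l1, and Rpl22 has no such overlap. Rpl22l1 had 459, 9 and 211 counts, and Gm33051 had 2602, 67 and 5718. The part of this overlap in the ratio was not tested.

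Rps27l, which in humans is induced by p53, was the copy nearest to its partner in replicates 1 and 3. It had 370.9, 151.8 and 149.2 TPM, against 493.0, 514.6 and 245.6 TPM for Rps27, and the log2 ratios were -0.41, -1.76 and -0.72. The counting intervals were -0.55 to -0.27 in replicate 1 and -0.95 to -0.49 in replicate 3, while that of replicate 2, resting on 3 and 13 counts, ran between -4.21 and 0.10. Rpl36al had 142.6, 213.6 and 64.1 TPM, against 437.4, 498.9 and 180.6 TPM for Rpl36a, a mean log2 ratio of -1.44 ± 0.20 (SD, n = 3). Rpl7l1 had 171.7, 190.1 and 62.5 TPM, against 1182, 783.7 and 477.5 TPM for Rpl7. Its mean log2 ratio of -2.59 ± 0.48 was the lowest of these 4 pairs.

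The remaining copies were at or near the limit of detection. Rpl39l, which in mice is needed for a ribosome of male germ cells, had 7, 2 and 1 counts, against 988, 18 and 533 for Rpl39. Its log2 TPM ratio was -6.35 (-7.67 to -5.31), -2.38 (-5.53 to -0.32) and -8.27 (-13.58 to -5.79). Rps4l had 5, 0 and 3 counts, against 4437, 36 and 1594 for Rps4x, and its log2 TPM ratio was -8.26 in replicate 3, with a counting interval of -10.54 to -6.71. In replicate 1 the interval was -10.63 to -7.78. In replicate 2 its TPM was at least 6.94-fold lower. Rpl3l, a gene of striated muscle, had 0, 0 and 1 counts, against 4389, 50 and 1806 for Rpl3. Its level was at least 771-fold lower in replicate 1 and at least 8.78-fold lower in replicate 2. Rpl10l, a testis gene that stands in for X-linked Rpl10 in meiosis, had 0 counts in all 3 libraries, against 2685, 23 and 1026 for Rpl10. Its level was at least 446-fold lower in replicate 1, 3.82-fold in replicate 2 and 170-fold in replicate 3. These bounds set 3 counts for the copy in each library and take the count of the partner as exact. The exact 95% counting interval of the Rpl10l ratio, which allows for both, ended at a log2 of -8.50, -1.52 and -7.11. That of Rpl3l ended at -9.29 in replicate 1 and -2.78 in replicate 2, and that of Rps4l at -2.42 in replicate 2. Each of these ends allows a smaller difference than the fold bound given above.

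In the 5 pairs with counts of both genes in every library, the copy was the lower in 3 of 3 libraries. The exact two-sided sign-flip p over libraries was 0.25 for each pair and 0.25 after Benjamini-Hochberg adjustment over the 5, the smallest that 3 libraries can give. The size of the ratios moved with the length used. Per principal transcript, the mean log2 ratio was -1.82 for Rpl22l1 to Rpl22, -1.85 for Rps27l to Rps27, -1.86 for Rpl36al to Rpl36a and -3.80 for Rpl7l1 to Rpl7, so that none of these 4 came nearer to its partner.

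Pairs of near-identical sequence can exchange reads, and the first 120 coding bases of 3 pairs are shown for how far reads can tell them apart. They were read from the principal transcripts of GENCODE M21, 5′ to 3′ from the start codon, with the bases at which the pair differs in capitals.
Rps27l: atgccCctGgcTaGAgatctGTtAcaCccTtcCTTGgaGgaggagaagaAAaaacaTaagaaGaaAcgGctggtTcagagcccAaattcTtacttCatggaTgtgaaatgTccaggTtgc
Rps27: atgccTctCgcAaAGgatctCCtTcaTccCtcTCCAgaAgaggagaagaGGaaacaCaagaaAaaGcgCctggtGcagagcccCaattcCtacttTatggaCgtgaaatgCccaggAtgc
Rpl36al: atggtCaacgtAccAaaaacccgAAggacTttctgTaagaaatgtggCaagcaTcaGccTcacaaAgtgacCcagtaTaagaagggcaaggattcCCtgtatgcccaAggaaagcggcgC
Rpl36a: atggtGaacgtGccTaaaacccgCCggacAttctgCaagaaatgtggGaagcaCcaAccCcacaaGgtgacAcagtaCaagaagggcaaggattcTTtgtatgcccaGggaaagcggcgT
Rpl39l: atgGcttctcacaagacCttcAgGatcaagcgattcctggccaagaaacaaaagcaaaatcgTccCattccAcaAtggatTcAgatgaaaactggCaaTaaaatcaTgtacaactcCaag
Rpl39: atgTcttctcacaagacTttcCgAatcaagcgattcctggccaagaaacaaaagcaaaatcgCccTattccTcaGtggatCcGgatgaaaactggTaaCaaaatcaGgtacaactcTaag
The stretches differ at 28 positions between Rps27l and Rps27, at 18 between Rpl36al and Rpl36a and at 14 between Rpl39l and Rpl39. Over the whole coding sequence the identity was 76.1%, 87.9% and 85.3% for these 3 pairs, and the longest identical run was 11, 24 and 38 bases. For Rpl22l1 and Rpl22 the identity was 68.2%, for Rpl7l1 and Rpl7 54.0%, for Rpl10l and Rpl10 84.8% and for Rpl3l and Rpl3 73.3%. The longest run among the 7 aligned pairs was the 38 bases shared by Rpl39l and Rpl39, so reads longer than that hold at least 1 difference in the coding sequence.

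Pseudogenes outside the rule are a second source of shared sequence, since ribosomal protein genes have many. The 283 genes with Rpl or Rps symbols that end in ps and a number held 1415, 11 and 471 counts in replicates 1, 2 and 3, which is 0.59%, 0.50% and 0.45% of the member counts. Rpl14-ps1 alone had 837, 1 and 185 of them. The headers list no option to count pairs that map to several places. Counts lost by members to such copies could not be read from the tables.

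Other ribosomal protein genes whose symbols fall outside the rule stood in the same range. Rps3a1 had 1964, 1564 and 861.5 TPM, Fau, which encodes a ubiquitin-like protein fused to a small subunit protein, 738.1, 810.6 and 470.6 TPM, and Rack1, a signalling scaffold on the small subunit, 502.7, 379.1 and 221.4 TPM. A list of 16 other translation and TOP genes, from elongation factors to Npm1, reached 1 TPM in every library in 16 of 16 cases. Its median was 447.3, 483.2 and 192.2 TPM, and Npm1 (4173, 3734 and 1943 TPM) and Eef1a1 (4046, 2832 and 1757 TPM) stood highest on the mean.

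Members carried snoRNA genes within their bounds on the same strand far more often than protein-coding genes as a whole did. They were hosts in 29 of 87 cases (33.3%), with 56 snoRNA genes, against 253 of 21764 protein-coding genes (1.16%). The 253 include the 29. All 29 hosts are canonical. The median level of canonical hosts was 610.8, 586.1 and 272.1 TPM, and that of the other canonical genes 676.1, 536.2 and 329.2 TPM. Hosts were the lower in replicates 1 and 3 and the higher in replicate 2, so no direction held.

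Opposite-strand exons touched 18 of 87 members (20.7%), against 16.2% of all 50600 genes and 22.1% of protein-coding genes. In 7 members they covered at least 10% of the exonic length. Among these were Rps12l1 (100%, Gm44510), Rpl35 (66.2%, Wdr38 and Arpc5l), Rpl23a (59.7%, Tlcd1), Rpl31 (25.3%, Tbc1d8), Rps25 (24.8%, Trappc4 and Ccdc84) and Rpl5 (24.3%, Fam69a). Over all 87 members, levels of the 18 differed from those of the other 69 by less than the SD over libraries. The median log2(TPM + 1) of overlapped minus other members was -0.07, 0.03 and -0.02 in replicates 1, 2 and 3, a mean of -0.02 ± 0.05 (SD, n = 3). That mean was 0.01 without replicate 1. Among canonical genes alone the difference was 0.10, 0.06 and 0.13 in replicates 1, 2 and 3, so overlapped genes were slightly higher in each library. This difference was not tested.

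Several partners on the other strand had more counts than the member they overlap. Rpl35 had 1326, 16 and 586 counts, and Wdr38 had 8257, 101 and 12074. Rpl23a had 5089, 36 and 2300 counts, and Tlcd1 had 21621, 299 and 23978. In these 2 pairs the partner exceeded the member in every library, and it was the partner that had more counts in replicate 3 than in replicate 1, while the member had fewer. Transcripts of the partner and pairs of the member counted on the other strand cannot be told apart in these tables.

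Other overlapped members exceeded their partner. Rps25 had 5738, 56 and 3241 counts, against 607, 18 and 1563 for Ccdc84 and 199, 0 and 146 for Trappc4. Rpl5 had 3418, 60 and 1347 counts, against 819, 14 and 1050 for Fam69a. Rpl31 had 1419, 21 and 730 counts, against 702, 17 and 914 for Tbc1d8, so the partner was the higher in replicate 3. Over the 20 pairs of member and partner, the member had the lower count per kb in 4 pairs in replicate 1 and in 6 in replicate 3. Of 19 partners with a ratio, 13 had a log2 CPM ratio of replicate 3 to replicate 1 above 0.

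Members with opposite-strand exons were lower in replicate 3 than in replicate 1 relative to library totals, whereas the median of other such genes was higher. Among members with at least 50 counts over replicates 3 and 1, CPM in replicate 3 over that in replicate 1 had a median log2 ratio of -0.76 in the 17 with opposite-strand exons (quartiles -0.87 and -0.54) and of -0.82 in the 63 without. None of the 17 was above 0, against 53.8% of 4145 other genes with opposite-strand exons, whose median was 0.23. With an overlap under 10%, 11 members had a median of -0.76 and 2034 other genes one of -0.56, with 33.6% above 0. With an overlap of at least 10%, the 6 members had a median of -0.74 and the 2111 other genes one of 0.66. In genes without overlap the medians were -0.82 for members and -0.84 for others. The difference between members and other overlapped genes was not tested.

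**Figure D3:**
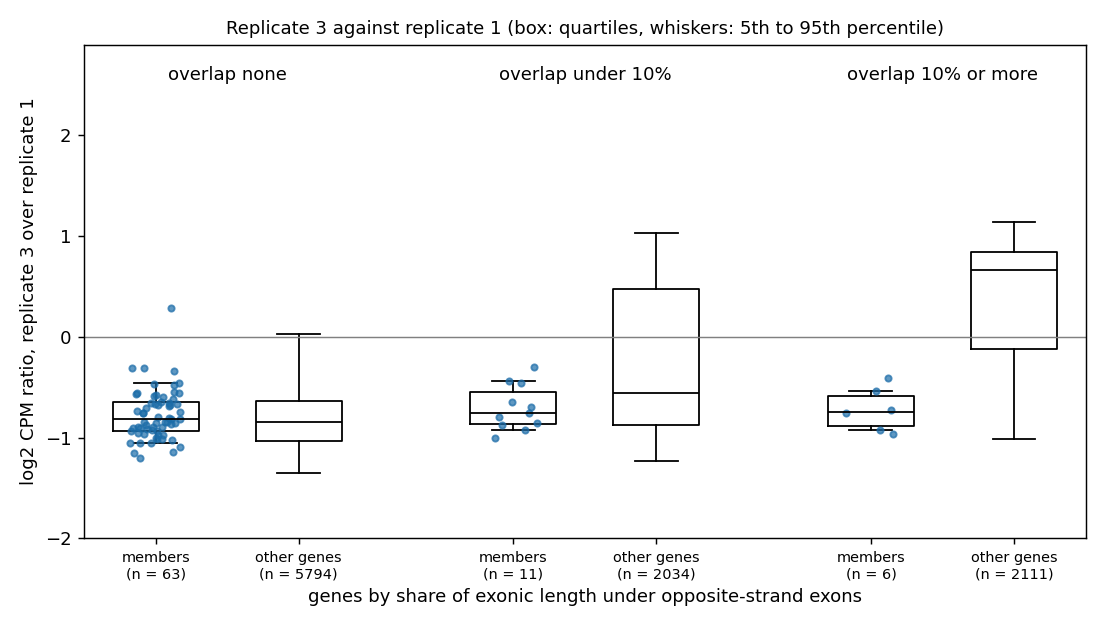
Log2 CPM ratio of replicate 3 over replicate 1 (y axis) for members and other genes with at least 50 counts over both libraries, by the share of exonic length under opposite-strand exons (x axis). Points are members, boxes give quartiles and the median, and whiskers the 5th and 95th percentiles. Members lie below 0 in each class save Rpl24 at 0.29, while the median of other genes rises to 0.66 in the class of at least 10%.

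The level of these ratios was set by the scaling. Against library totals, 79 of the 80 members with a ratio were below 0, and the exception was Rpl24 at 0.29, on 57 and 52 counts in replicates 1 and 3. Most other genes without opposite-strand exons were below 0 too, with 5.2% of 5794 above it, against 53.8% of 4145 with such exons. With trimmed mean of M values (TMM) scaling over all kept genes the medians of members were -0.30 with and -0.37 without opposite-strand exons. With TMM over genes without opposite-strand exons they were 0.09 and 0.03, so their sign turned. Every direction between libraries is therefore given with its scaling, and the differences among members, which no scaling alters, are described next.

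Among members the ratio of replicate 3 to replicate 1 spread over more than 1 log2 unit. Lowest against library totals were Rpl35a (-1.20), Rpl7l1 (-1.16), Rps29 (-1.14), Rps15a (-1.10) and Rps6 (-1.06), which encodes the classical substrate of S6 kinase. Highest after Rpl24 were Rps28 (-0.30), Rpl13 (-0.31), Rpl41 (-0.31) and Rpl36 (-0.34). Rpl41 encodes the shortest ribosomal protein. Fau (-0.35), outside the rule, lay near the upper end, and the 16 other translation genes between -1.09 and -0.64.

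Most members varied between libraries beyond counting error, as did most genes. With Benjamini-Hochberg adjustment of a chi-square test on TMM-scaled counts, 65 of the 79 members tested (82.3%) had an adjusted p under 0.05, against a background of 63.2% of 7406 genes. Of the 87, 79 passed the filter on low counts, which asks for counts in all 3 libraries. Members are deeply counted, and among genes with at least 1000 counts 62 of 74 members (83.8%) were called, against 92.9% of all such genes. Of the 65, 62 were lower in replicate 3 than in replicate 1 and 3 were higher on this scaling. Among other genes with at least 50 counts over both libraries, called or not, 13.1% of 5794 without opposite-strand exons were higher. With such exons 62.9% of 4145 were. The smallest adjusted p by this chi-square test were those of Rpl7 (1.11e-60), Rps2, Rpl12, Rps4x (1.86e-45), Rplp0, Rpsa, Rpl4, Rpl9, Rpl8 and Rpl32. Rpl7 had 6802, 51 and 2529 counts and Rps4x 4437, 36 and 1594, both fewer in replicate 3.

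The calls changed when the test was confined to genes without opposite-strand exons, with their own TMM scaling. There 34 of 62 members (54.8%) varied, against a background of 13.5% of 4136 genes, and among genes with at least 1000 counts 34 of 59 (57.6%), against 32.2%. Of the 34, 23 were higher in replicate 3 than in replicate 1 and 11 were lower, and 27 were also among the 65. With TMM over genes without opposite-strand exons, 50.1% of 5794 other such genes, called or not, were higher in replicate 3. Rpl41 had 4998, 44 and 3014 counts in replicates 1, 2 and 3, a log2 ratio of replicate 3 to replicate 1 of 0.54 on this scale, and the smallest adjusted p by the chi-square test (4.91e-51). Rpl13 followed at 0.54 (adjusted chi-square p = 2.37e-24) and Rpl36 at 0.50 (adjusted chi-square p = 2.46e-21). Rps14, Rpl26 and Rpl19 were also higher in replicate 3, by 0.37, 0.26 and 0.25.

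Lower in replicate 3 on the same scale were Rpl35a, with a log2 ratio of -0.36, Rps4x with -0.21 and Rpl7 with -0.16. The adjusted chi-square p was 1.9e-05 for Rpl35a, 5.1e-07 for Rps4x and 7.82e-08 for Rpl7. Rps24 and Rpl3 gave no call there, with an adjusted chi-square p of 0.721 and 0.779. Rpl41, Rpl13 and Rpl36 were higher in replicate 3 under both TMM scalings, and Rpl7, Rps4x and Rpl35a were lower under both. The count test treats any spread beyond counting as variation, so it separates libraries and not conditions. Which members it called also rested on the 2 deep libraries and on the scaling. It called 3 members without replicate 1 (background 9.47%), 50 of 80 without replicate 2 (37.9%) and 6 without replicate 3 (3.65%). On library totals it called all 79 (88.5%), on DESeq2 size factors 57 (54.3%), on TMM over genes without opposite-strand exons 49 (39.0%), and without the filter 65 of 85 (30.6%). In genes without opposite-strand exons and without replicate 2 it called 32 of 63 (11.6%).

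The common biological coefficient of variation (BCV, the spread between libraries after counting error) from edgeR was 0.196 over the 79 members and 0.341 over all 7406 kept genes. In genes without opposite-strand exons it was 0.139 for members and 0.164 for all. Replicate 2 bore on these values, since the members' coefficient was 0.109 without it, 0.180 without replicate 1 and 0.244 without replicate 3. For all kept genes, leaving out replicate 2 gave 0.363, replicate 1 gave 0.365 and replicate 3 gave 0.241, so members were lower only when replicate 3 was in. In genes without opposite-strand exons the lower value of members was seen only with replicates 1 and 3 both in. Members stood at 0.103 and all such genes at 0.181 without replicate 2, at 0.221 and 0.220 without replicate 1, and at 0.223 and 0.215 without replicate 3. The root of the median single-gene dispersion from DESeq2, a different measure, was 0.172 over members and 0.181 over all kept genes. No test of the difference between members and other genes was made. Nor were the sets matched for depth, since 74 of the 79 members had at least 1000 counts, against 1747 of the 7406 kept genes.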

How the data were processed

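RNA from 3 Th1 libraries was measured; the labels call the assay total RNA-seq, while the linked library protocol is named for poly(A)+ RNA. The deposited values are raw fragment counts per gene, made per the file headers with featureCounts 1.4.6-p4 from exons of GENCODE M13, with read pairs, both ends mapped and strand setting 1, on alignments named star2 (mm10 per the labels). The kit and the aligner's version are not given in the sources used. The deposited tables also hold a gene length in bp, another value used for TPM. The members and gene lists were chosen with earlier results of these data known.

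Symbols were matched for 50376 of 50600 genes, and no column of another series was used. Biotypes, snoRNA genes, principal transcripts and coding sequences came from GENCODE M21, promoters from RefSeq GRCm38.p6, and strand overlaps of at least 1 base from bedtools 2.31.1. TPM, CPM and log2(TPM + 1) were computed here. TMM, the count filter (filterByExpr) and the coefficient of variation came from edgeR 4.0.16, with DESeq2 1.42.0 size factors as an alternative. With 1 group, edgeR's quasi-likelihood test was not possible; a chi-square test (2 degrees of freedom) took its place, with Benjamini-Hochberg adjustment over all kept genes at 0.05. It was tested on simulated data. Paralogues were compared by exact sign-flip tests and exact counting intervals.

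Members named were the 5 highest and lowest of each subunit, all paralogue pairs, the P stalk genes and Rpsa, members with at least 10% overlap, the 5 extreme ratios at each end and the 10 smallest adjusted p; the choice of others followed their values. Results for some genes of these rules and lists are left out of the text and of the plot of levels. R 4.3.3 and Python 3.11.15 were used.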

Additional observations from a re-analysis of the deposited data

How the results depend on the processing

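Of 98 alternative settings, 61 left a result in place, 34 moved it and 3 turned its sign; the cause of each move was not tested unless the setting itself states it. The median log2 ratio of replicate 3 to replicate 1 in members without opposite-strand exons (-0.82) was -0.37 with TMM, -0.26 with DESeq2 size factors, -0.81 with overlaps under 10% included and 0.03 with TMM over genes without opposite-strand exons. In members with such exons (-0.76) it was -0.30, -0.20, -0.74 at an overlap of at least 10% and 0.09. Overlapped minus other members (-0.02) ranged between -0.05 and 0.01 when a replicate was left out. Small minus large subunit (0.35) was 0.11 per principal transcript, 0.17 from CPM, 0.22 without opposite-strand exons and 0.53 without same-strand sharing. The SD over members (2.61) was 3.21 with a pseudocount of 0.1, 1.94 with 10, 1.41 in canonical genes and 2.88 without same-strand sharing, and the mean share (4.14%) was 8.21% in genes without opposite-strand exons.

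Varying members (65) numbered between 3 (without replicate 1) and 50 (without replicate 2) with a replicate left out, 6 without replicate 3, 34 in genes without opposite-strand exons and 32 there without replicate 2. The coefficient of variation over all genes (0.341) was 0.241 to 0.365 with a replicate left out and 0.164 without opposite-strand exons. For members (0.196) it was 0.109 to 0.244 and 0.139. The root of the median single-gene dispersion from DESeq2, a different measure, was 0.181 over all kept genes and 0.172 over members. Mean paralogue ratios from counts were -1.60 for Rpl22l1, -1.74 for Rpl36al and -9.42 for Rps4l (-8.04 with a pseudocount of 1), and per principal transcript -1.82 for Rpl22l1, -3.80 for Rpl7l1, -1.85 for Rps27l and -1.86 for Rpl36al. Settings with principal transcripts, same-strand sharing and tests confined to genes without opposite-strand exons were chosen after seeing the data. No paired analysis was possible because there is 1 group. Replicate 2, with 50627 counts, limits every value that rests on it.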
